A study of Mus musculus with 4 samples.

Results

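Potassium channel genes carried by the mouse colon carcinoma line MC38 were compared between irradiated and unirradiated cultures. The genes were taken as the protein-coding entries of GENCODE M21 (mouse build GRCm38, the build the submitters' notes call mm10) whose symbol begins with Kcn followed by a letter. The annotation holds 94 such genes and the count table, which has 26561 genes, holds 78 of them. The other 16 were not analysed here, and they are Kcna3, Kcna5, Kcna6, Kcna10, Kcnc4, Kcne1, Kcne1l, Kcng1, Kcng2, Kcnj4, Kcnj11, Kcnk15, Kcnk16, Kcnk18, Kcns1 and Kcnv1. Expression was judged in CPM, the usual library-scaled count, computed on library sizes corrected by TMM, a scaling that evens out libraries over most genes. Of the 78, 10 had a mean of at least 1 CPM over the 4 libraries and are called expressed, and 68 lay below that and are called near-silent. The expressed genes just above the line were Kcnt2 at 1.21 CPM and Kcnip3 at 1.61 CPM, and the near-silent gene just below it was Kcnab1 at 0.910 CPM.

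The irradiated group (IR) consists of 2 libraries of wild-type MC38 cells, an epithelial line by its label, given X-rays at 30 Gy, with RNA taken 60 h afterwards. The unirradiated group (nonIR) consists of 2 libraries of the same wild-type line, for which no harvest time is given in the sources used here, so that time in culture and irradiation cannot be told apart. Both groups are 1 line without a transgene in the labels, and no source says that replicates were separate cultures, so the p-values measure only how much these libraries vary, possibly for technical reasons. In bulk RNA, fewer cells making a transcript and less transcript per cell cannot be told apart. The epithelial label was matched in small part. Of 12 epithelial markers, 10 have values. Cdh1 and Tjp1 were abundant, Krt19 had a mean of 1.59 CPM, and 7 had a mean under 1 CPM. Among those 7, Epcam had at most 1 count in any library.

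Potassium channels let potassium leave or enter the cell along its gradient, and so set the resting membrane potential, the repolarisation of excitable cells and the volume of all cells. Pore-forming subunits fall into voltage-gated, calcium- or sodium-activated, inwardly rectifying and tandem-pore-domain (K2P) classes, and auxiliary subunits alter how those pores traffic and gate. In epithelial and tumour cells the intermediate-conductance calcium-activated channel, encoded by Kcnn4, and the hERG-type channel, encoded by Kcnh2, have been studied for their part in proliferation and migration, whereas most voltage-gated genes are best known from neurons and muscle.

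The sequences upstream of 3 genes on which the results turn are shown first: Kcnn4, the expressed gene that fell most, and Kcnip3 and Kcnt2, the expressed genes that rose most. Each is the 250 bases before the RefSeq transcription start on build GRCm38.p6, read 5′ to 3′ on the gene's own strand. Capitals mark matches, on either strand, to an E-box (CACGTG), an AP-1 site (TGANTCA) or an interferon-stimulated response element.
Kcnn4, chr7:24370013-24370262, plus strand: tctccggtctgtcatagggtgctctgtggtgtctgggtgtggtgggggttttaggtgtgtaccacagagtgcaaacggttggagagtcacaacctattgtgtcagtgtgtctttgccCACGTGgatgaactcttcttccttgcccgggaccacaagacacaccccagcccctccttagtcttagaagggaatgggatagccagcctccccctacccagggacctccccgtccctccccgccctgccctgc
Kcnip3, chr2:127522095-127522344, minus strand: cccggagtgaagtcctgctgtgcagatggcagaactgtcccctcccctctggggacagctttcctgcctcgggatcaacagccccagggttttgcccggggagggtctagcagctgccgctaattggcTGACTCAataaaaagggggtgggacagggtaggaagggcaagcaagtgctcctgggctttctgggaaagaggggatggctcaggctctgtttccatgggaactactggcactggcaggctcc
Kcnt2, chr1:140245468-140245717, plus strand: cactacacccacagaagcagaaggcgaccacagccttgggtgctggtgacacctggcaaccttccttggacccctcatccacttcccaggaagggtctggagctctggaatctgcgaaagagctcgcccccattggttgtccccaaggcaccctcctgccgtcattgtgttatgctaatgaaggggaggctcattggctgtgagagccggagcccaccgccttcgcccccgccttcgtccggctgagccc
The Kcnn4 window held 1 match, an E-box, and the Kcnip3 window held 1 match, an AP-1 site. These letters were not found in the Kcnt2 window, whose RefSeq start lies 440 bases from the start of the gene in GENCODE. Kcnip3 has 3 start windows in the table, of which the one at the GENCODE start is shown. The RefSeq table held windows for 58 of the 78 genes, 83 windows in all. Of these 83 windows 4.82% held an AP-1 match, 7.23% an E-box and 7.23% an interferon-stimulated response element. The shares of all 32851 windows of the same length were 6.75%, 6.02% and 2.98%. The member shares rest on few windows: 4 of 4 genes for AP-1, 6 of 5 genes for the E-box and 6 of 4 genes for the interferon-stimulated response element. Matches to different motifs were counted separately where they overlapped, and a match is a description of the sequence alone.

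The 10 expressed genes did not move together. Kcnn4, Kcnab2 and Kcnh2 fell, Kcnd1, Kcnip3, Kcnip4 and Kcnt2 rose, and Kcnk2, Kcnj6 and Kcnab3 did not pass the test (edgeR's quasi-likelihood test, Benjamini-Hochberg adjusted p under 0.05 over 15298 genes). Among all 12872 tested genes with a mean of at least 1 CPM, 30.5% rose and 35.3% fell, and 60.7% of all 15298 genes tested passed in either direction. Of the 4 that rose, Kcnip3 and Kcnt2 were below 1 CPM in both nonIR libraries and reached a mean of 1 CPM through the IR libraries alone, so the count of 4 is not read against that background. With at least 2 CPM as the limit, 1 expressed member rose. The median log2 fold change (IR over nonIR throughout) of the 10 was 0.11, beside -0.03 over those 12872 genes. Both IR libraries lay above both nonIR libraries in 4 of the 10 genes and below them in 4, against 38.1% and 43.4% of all genes at that level. Kcnip3 and Kcnt2 enter both the median and the 4 genes that lay above, so these values are likewise not read against that background.

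**Figure D1:**
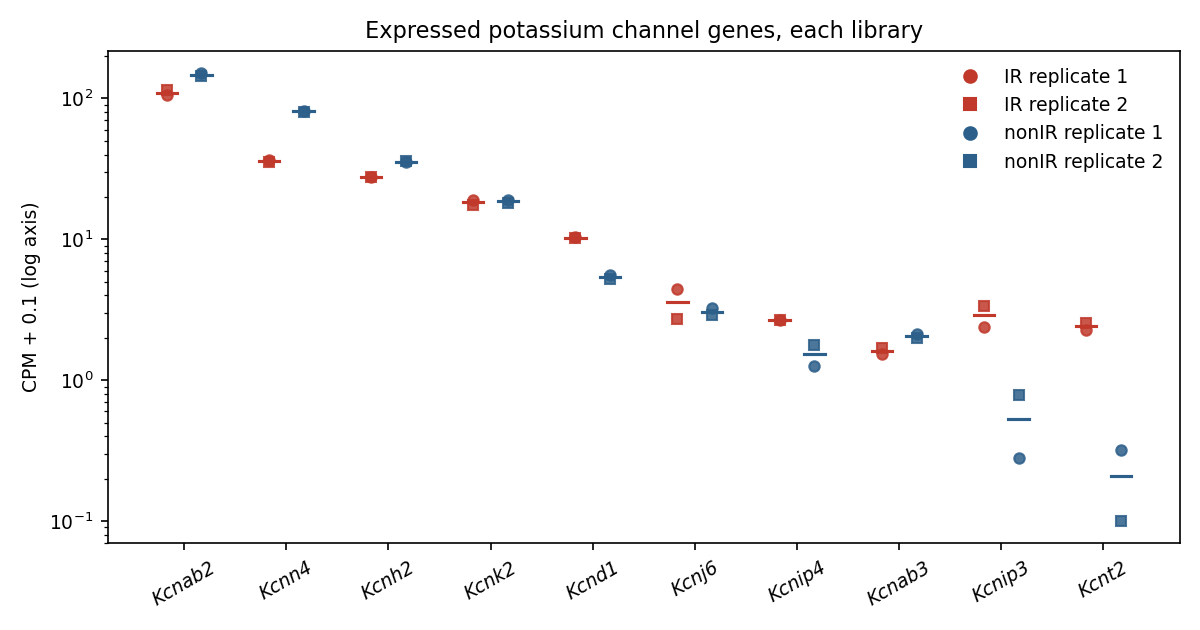
CPM of the 10 expressed potassium channel genes in each library, with 0.1 added so that a value of 0 can be drawn on the log axis. Circles and squares are replicates 1 and 2 and short lines are group means. Kcnn4 is the abundant gene with the widest gap (35.8 CPM in IR and 80.8 CPM in nonIR cells), and Kcnt2 and Kcnip3 are near the bottom of the axis in nonIR cells only.

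Summed over the 78 genes, transcripts came to 223 and 231 CPM in the IR libraries and 303 and 292 CPM in the nonIR libraries. Most of that is the auxiliary subunit gene Kcnab2 together with Kcnn4 and Kcnh2. Kcnab2 held 47.1% and 49.4% of the members' counts in IR and 49.8% and 49.1% in nonIR libraries. The share of Kcnn4 was 16.3% and 15.3% in IR and 27% and 27.3% in nonIR libraries. Levels of different genes were compared as CPM per kilobase of annotated exon. On that scale the order in IR cells was Kcnab2 (19.6), Kcnn4 (7.01), Kcnh2 (5.69), Kcnk2 (3.69) and Kcnd1 (1.93), and the same order held in nonIR cells (26.4, 15.8, 7.34, 3.75 and 0.999). The other 5 expressed genes lay between 0.336 and 0.784 CPM per kilobase in IR cells and between 0.0158 and 0.684 in nonIR cells.

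Among the calcium- and sodium-activated channels, the 2 expressed genes moved in opposite directions. Kcnn4 (ENSMUSG00000054342, chromosome 7, 24370263 to 24386690), which encodes the intermediate-conductance calcium-activated channel, had 1083 and 937 counts in the IR libraries and 2253 and 2324 in the nonIR libraries. The groups were far apart, and replicates lay close together. Its level was 35.8 ± 0.767 CPM in IR and 80.8 ± 1.68 CPM in nonIR cells (SD, n = 2 each), 2.25-fold lower in IR, a change of -1.17 on the log2 scale (SE 0.06; edgeR, adjusted p = 8.51e-73). Kcnt2 (chromosome 1, 140246158 to 140612067), which encodes the sodium-activated channel Slick, had 65 counts in each IR library and 6 and 0 in the nonIR libraries. Kcnt2 rose, with 2.32 ± 0.187 CPM in IR and 0.109 ± 0.154 CPM in nonIR cells (SD, n = 2 each) and a change of 4.39 on the log2 scale (SE 0.62; edgeR, adjusted p = 7.21e-12). The size of that fold rests on very few nonIR counts. It was 3.37 without nonIR replicate 2, and without nonIR replicate 1, where the remaining nonIR library is at 0, the fitted value was 9.04. Kcnn4 made up most of its class, whose 8 genes in the table came to 39.5 and 39.3 CPM in IR and 82.6 and 79.7 CPM in nonIR libraries.

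Voltage-gated pores had 2 expressed genes, again in opposite directions. Kcnh2 (chromosome 5, 24319589 to 24351604), the gene of the hERG-type channel whose human counterpart repolarises the heart, had 822 and 730 counts in IR and 975 and 1040 in nonIR libraries. It fell by 0.37 on the log2 scale (SE 0.09, edgeR adjusted p = 6.04e-05), with 27.6 ± 0.0808 CPM in IR and 35.6 ± 0.102 CPM in nonIR cells (SD, n = 2 each). Kcnd1 (chromosome X, 7822289 to 7838280), which encodes the rapidly inactivating Kv4-type pore, had 307 and 267 counts in IR and 150 and 149 in nonIR libraries. Both IR libraries of Kcnd1 stood well above both nonIR libraries, at 10.2 ± 0.180 CPM in IR and 5.28 ± 0.251 CPM in nonIR cells (SD, n = 2 each). The log2 fold change was 0.95, a 1.93-fold rise (SE 0.18, edgeR adjusted p = 3.44e-07).

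Kcnip3 and Kcnip4 encode calcium-binding auxiliary subunits that assemble with Kv4 pores such as the product of Kcnd1, and both rose. Kcnip3 (chromosome 2, 127456498 to 127522094), whose product is also known as the transcriptional repressor DREAM and as calsenilin, had 68 and 87 counts in IR and 5 and 20 in nonIR libraries. Its level was 2.78 ± 0.702 CPM in IR and 0.434 ± 0.356 CPM in nonIR cells (SD, n = 2 each), a change of 2.65 on the log2 scale (SE 0.45; edgeR, adjusted p = 1.11e-08). The nonIR libraries of Kcnip3 differed widely from each other, and the log2 fold change was 2.0 without nonIR replicate 1 and 3.89 without nonIR replicate 2. Kcnip4 (chromosome 5, 48389502 to 49524907) had 77 and 68 counts in IR and 32 and 49 in nonIR libraries. Its log2 fold change was 0.85 (SE 0.36, edgeR adjusted p = 0.0287). That call was lost without IR replicate 1 (adjusted p = 0.109), without IR replicate 2 (0.0989) and without nonIR replicate 1 (0.197), and it was lost in DESeq2 (0.0681) and with no filter on low counts (0.0564). Exons of Kcnip4 share 168 bases with 5730480H06Rik on the other strand, which had 483 and 454 counts in IR and 399 and 396 in nonIR libraries. The strand setting of the counting is not given, and reads from such shared bases cannot be assigned without it.

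The Kv4 pore genes and their calcium-binding partners, grouped here after their values were seen, number 7 in the table. Together they had 471 and 462 counts in IR and 196 and 225 in nonIR libraries. Beyond the 3 that rose, the members were rare and fell below the filter on low counts. Kcnd3, a Kv4 pore of heart and brain, had 7 and 14 counts in IR and 0 in both nonIR libraries. Kcnip1 had 7 and 18 counts in IR and 3 and 6 in nonIR libraries, Kcnip2 had 4 and 6 in IR and 6 and 1 in nonIR libraries, and Kcnd2 had 1 and 2 in IR and 0 in both nonIR libraries. Dpp6, a membrane protein that joins Kv4 complexes and no Kcn gene, was singled out after its values were seen and had 18 and 15 counts in IR and 0 in both nonIR libraries.

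Kcnab2 (chromosome 4, 152390742 to 152477871), the beta subunit of Kv1-type channels with the fold of an aldo-keto reductase, was the most abundant member. It had 3134 and 3023 counts in IR and 4154 and 4187 in nonIR libraries. It fell to 110 ± 6.08 CPM in IR cells, against 147 ± 5.47 CPM in nonIR cells (SD, n = 2 each), 1.34-fold lower, or -0.43 on the log2 scale (SE 0.05, edgeR adjusted p = 1.67e-19). The other beta subunit genes were far less abundant. Kcnab3 (chromosome 11, 69326258 to 69333042) had 43 and 42 counts in IR and 56 and 55 in nonIR libraries, without overlap between groups, and its log2 fold change of -0.37 did not pass (SE 0.38, edgeR adjusted p = 0.409). Near-silent Kcnab1 had 30 and 42 counts in IR and 11 and 19 in nonIR libraries, and its log2 fold change of 1.28 passed narrowly (SE 0.56, edgeR adjusted p = 0.0382). That call of Kcnab1 was lost under 6 of the 8 other fits, at adjusted p between 0.0527 and 0.357, among them each fit without IR replicate 1, without IR replicate 2 or without nonIR replicate 1. The Kv1 pores that these beta subunits join were rare. Kcna7 had 10 and 8 counts in IR and 6 and 5 in nonIR libraries, and Kcna1, Kcna2 and Kcna4 had 0 counts in both nonIR libraries and 2, 3 and 7 in IR replicate 1, with 0 in IR replicate 2.

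Inward rectifiers and tandem-pore channels each had 1 expressed gene, and neither passed the test. Kcnk2 (chromosome 1, 189207930 to 189402273), which encodes the mechanically sensitive background channel TREK-1, had 563 and 466 counts in IR and 523 and 528 in nonIR libraries. The groups overlapped at 18.2 ± 0.961 CPM in IR and 18.6 ± 0.669 CPM in nonIR cells (SD, n = 2 each), a log2 difference of -0.02 (SE 0.11, edgeR adjusted p = 0.870). The missed threshold does not show equal levels. Kcnj6 (chromosome 16, 94748636 to 94997701), a G protein-activated inward rectifier of neurons, had 129 and 70 counts in IR and 86 and 82 in nonIR libraries. Its IR libraries lay on both sides of the nonIR values, and the log2 fold change of 0.24 did not pass (SE 0.27, edgeR adjusted p = 0.467).

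**Figure D2:**
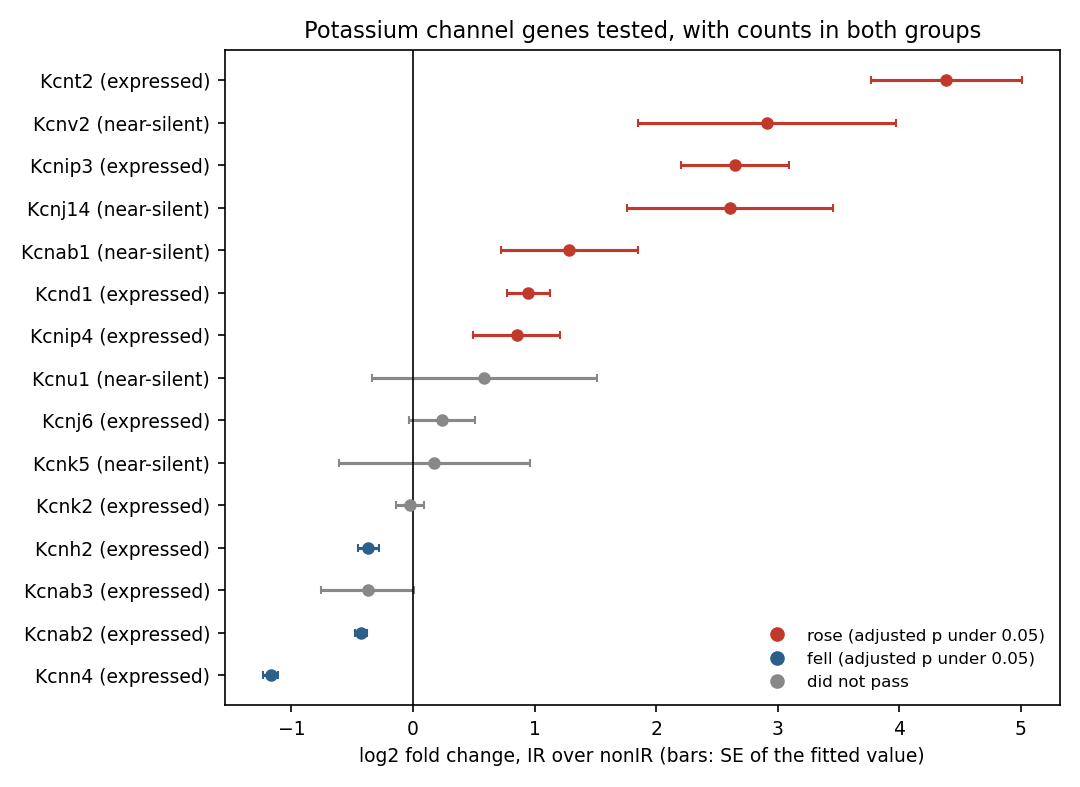
Log2 fold change (IR over nonIR) of potassium channel genes that were tested and had counts in both groups, with bars for the SE of the fitted value; red points rose, blue points fell and grey points did not pass at an adjusted p of 0.05. The points run from Kcnt2 at 4.39 to Kcnn4 at -1.17, and bars widen where counts are few.

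The 68 near-silent genes had few counts, and more of them in irradiated cells. Their summed counts were 357 and 364 in the IR libraries and 94 and 88 in the nonIR libraries, or 12.0 and 13.7 CPM against 3.42 and 3.01 CPM. The sum was 3.99-fold higher in IR, with an exact 95% interval (Clopper-Pearson, on the summed counts) of 3.38 to 4.72 that covers counting error only. With 2 libraries against 2, an exact permutation test cannot give a two-sided p below 0.333, so the ratio stands as a description. Other rare genes were also higher in IR. All 13689 genes under a mean of 1 CPM summed to 2750 and 2807 CPM in IR and 1634 and 1616 CPM in nonIR libraries, a ratio of 1.71, and the 5856 protein-coding genes among them had a ratio of 2.51. Cell type markers, which are not limited to rare genes, were divided. Leukocyte markers (7 of 9 listed have values) summed to 1.98 and 1.88 CPM in IR and 0.873 and 0.377 CPM in nonIR libraries, a ratio of 3.09. Endothelial markers (5 genes) summed to 6.25 and 6.59 CPM against 2.58 and 1.92 CPM, a ratio of 2.85. Most of that sum was Pecam1, with a mean of 3.56 CPM. The ratio was 1.49 for fibroblast, 1.44 for smooth muscle and 1.06 for epithelial markers. It was 0.967 for neuron markers, nearly all of it Tubb3, and 0.260 for striated muscle markers, nearly all of it Tnnt2. Among the rarer tested genes of these lists, Syt1 (neuron, log2 fold change 2.61) and Des (striated muscle, 2.33) rose. The neuron markers Elavl3 and Gap43 did not pass. The part of any such background in the potassium channel sum was not tested.

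Of the 68 near-silent genes, 58 and 47 had at least 1 count in the IR libraries and 20 and 22 in the nonIR libraries. More genes were detected in IR libraries in general: of the 13689 genes under 1 CPM, 9841 and 9791 had a count in the IR libraries and 6559 and 6675 in the nonIR libraries. Of the 5856 protein-coding genes among them, 4572 and 4491 had a count in the IR libraries and 2382 and 2403 in the nonIR libraries. By library-scaled counts 63 were higher in IR and 5 in nonIR cells. In 33 of the 68 (48.5%) both IR libraries lay above both nonIR libraries, against 29.1% of all 13689 genes under 1 CPM, and in 1 (1.47%) both lay below, against 7.13%. That background holds genes of every type, whereas the 68 are protein-coding, and the share over protein-coding genes alone was not taken. The genes higher in nonIR cells were Kcnrg, Kcnh8, Kcnmb3, Kcnk6 and Kcnmb4, with at most 21 counts in that group. A count of 0 in both nonIR libraries was found for 41 genes, whose counts came to 153 and 119 in the IR libraries. No share over all genes under 1 CPM was taken for the 63, the 5 or the 41 genes. These counts are therefore not read as particular to potassium channel genes. Counts were also uneven between replicates. Of 43 near-silent genes with at least 5 counts in the IR group, 10 were at 0 in 1 of its libraries, as in Kcnq1 with 0 and 14 counts.

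By class, the near-silent voltage-gated pores made up the largest sum in both IR libraries. Their 23 genes came to 4.84 and 4.82 CPM in IR and 0.364 and 0.685 CPM in nonIR libraries, 9.21-fold higher in the mean (exact 95% interval of the count ratio 6.25 to 13.8, counting error only). The 6 modifier subunits, voltage-gated proteins that form no channel alone and alter the pores they join, came to 0.773 and 1.09 CPM in IR and 0.218 and 0 CPM in nonIR libraries, a ratio of 8.54. That ratio was 4.27 without nonIR replicate 2, and without nonIR replicate 1 the nonIR sum was 0. The 12 inward rectifiers had 2.08 and 2.79 CPM in IR and 0.655 and 0.617 CPM in nonIR libraries, a ratio of 3.83. The 6 calcium- and sodium-activated genes had 0.941 and 1.58 CPM in IR and 0.437 and 0.103 CPM in nonIR libraries, a ratio of 4.68 that was 12.3 without nonIR replicate 1 and 2.89 without nonIR replicate 2. The 10 tandem-pore genes had 0.907 and 0.678 CPM in IR and 0.255 and 0.445 CPM in nonIR libraries, a ratio of 2.26. The 11 auxiliary genes had 2.45 and 2.75 CPM in IR and 1.49 and 1.16 CPM in nonIR libraries, a ratio of 1.96. In every class both IR libraries were above both nonIR libraries, and differences between classes were not tested, nor is their order by ratio stable when a nonIR library is left out.

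**Figure D3:**
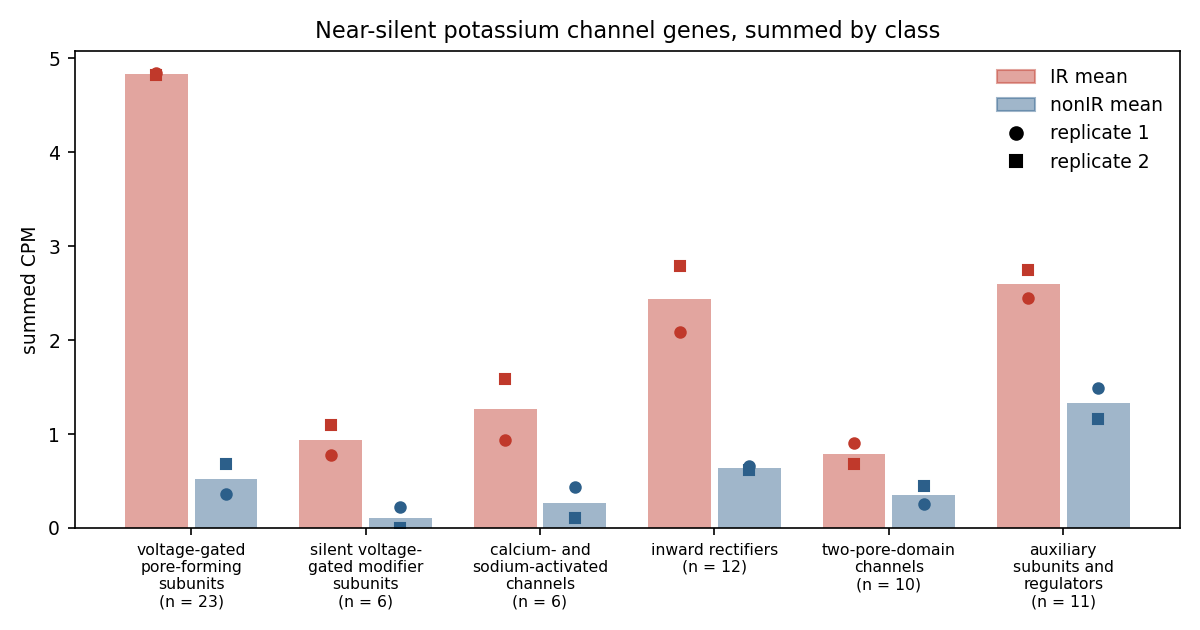
Summed CPM of the near-silent potassium channel genes in each class; bars are group means over 2 libraries and points the libraries, with the number of genes under each class. The voltage-gated pores reach 4.83 CPM in IR and 0.524 CPM in nonIR cells, and no class has overlapping groups.

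Only 8 of the 68 near-silent genes passed the filter on low counts, and 2 of these had no nonIR counts at all, so the calls below are not read as a share. Of these 8, 6 rose, and Kcnk5 and Kcnu1 did not pass. The number that rose was 2 without IR replicate 1 and 3 without IR replicate 2. Of all 2426 genes under 1 CPM that were tested, 29.8% rose and 3.71% fell. No near-silent member was called lower with edgeR (0 at an unadjusted p under 0.05), and none could be. All 8 tested had a log2 fold change above 0, and the 5 higher in nonIR cells were below the filter. DESeq2 called 0 of 29 lower, with 0 at an unadjusted p under 0.05. These values are not read against the 3.71%.

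Kcnh7 (chromosome 2, 62693414 to 63184287), a relative of Kcnh2 with an Erg-type pore, had 25 and 12 counts in IR and 0 in both nonIR libraries. Against a floor of 3 counts over the nonIR group it was 12.4-fold higher in IR, a value that is not a lower limit. The exact 95% lower limit of its count ratio was 9.60 (counting error only). Kcnh7 rose (edgeR, adjusted p = 8.25e-06), and it left the test without IR replicate 1. Its exons share 696 bases with Gca on the other strand, which had 16 and 4 counts in IR and 1 and 4 in nonIR libraries. Kcnn3 (chromosome 3, 89520164 to 89675132) encodes the small-conductance calcium-activated channel SK3. It had 14 and 15 counts in IR and 0 in both nonIR libraries, 9.73-fold higher in IR over the same floor. The exact 95% lower limit of its count ratio was 7.42 (counting error only). Kcnn3 rose (edgeR adjusted p = 6.80e-05). It fell below the filter without IR replicate 2.

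Kcnj14 (chromosome 7, 45816460 to 45824782), an inward rectifier, had 23 and 15 counts in IR and 5 and 1 in nonIR libraries, a log2 difference of 2.61 (SE 0.85, edgeR adjusted p = 0.0044). The call was lost without IR replicate 1 (adjusted p = 0.143) and without nonIR replicate 2 (0.141), where the log2 fold change was 1.85, and the value was 4.11 without nonIR replicate 1. Kcnv2 (chromosome 19, 27322588 to 27337179), a modifier subunit known from photoreceptors, had 11 and 13 counts in IR and 3 and 0 in nonIR libraries, 8.05-fold more counts in IR (exact 95% limits 2.45 and 41.8, counting error only) and passed (edgeR, adjusted p = 0.0114). Its call was lost without IR replicate 1 (adjusted p = 0.0937) and without nonIR replicate 2 (0.247), as well as in DESeq2 (0.0735) and with no filter on low counts (0.0675), and it left the test without IR replicate 2. Kcnk5, an alkaline-activated tandem-pore channel and the member of its class with the most counts below 1 CPM, had 8 and 12 counts in IR and 6 and 12 in nonIR libraries, with overlapping groups (log2 fold change 0.18, SE 0.78, edgeR adjusted p = 0.864).

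Some genes too rare to test had at least 10 counts in IR and 0 in nonIR cells. Kcnd3, one such gene, was described with the Kv4 genes. Kcnb2, which encodes a delayed rectifier, had 10 and 6 counts in the IR libraries. That was 5.37-fold higher over the floor of 3 counts for the nonIR group. The exact 95% lower limit of the Kcnb2 count ratio was 3.88 (counting error only). Kcnmb2, a beta subunit of the large-conductance calcium-activated channel, had 10 and 2, and Kcnj3, a partner of the Kcnj6 product in G protein-activated channels, had 2 and 9. Kcnq1, a Kv7 pore of heart and epithelia, had its counts in a single IR library, as given above. Kcnq1 shares 121 exonic bases with Kcnq1ot1 on the other strand, which had 475 and 389 counts in IR and 482 and 569 in nonIR libraries. Of the 68 near-silent genes, 42 had fewer than 10 counts over the 4 libraries, including Kcnma1, the pore of the large-conductance channel, with 3 and 2 counts in IR and 0 and 1 in nonIR libraries, and 22 had 1 to 3 counts in all.

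**Figure D4:**
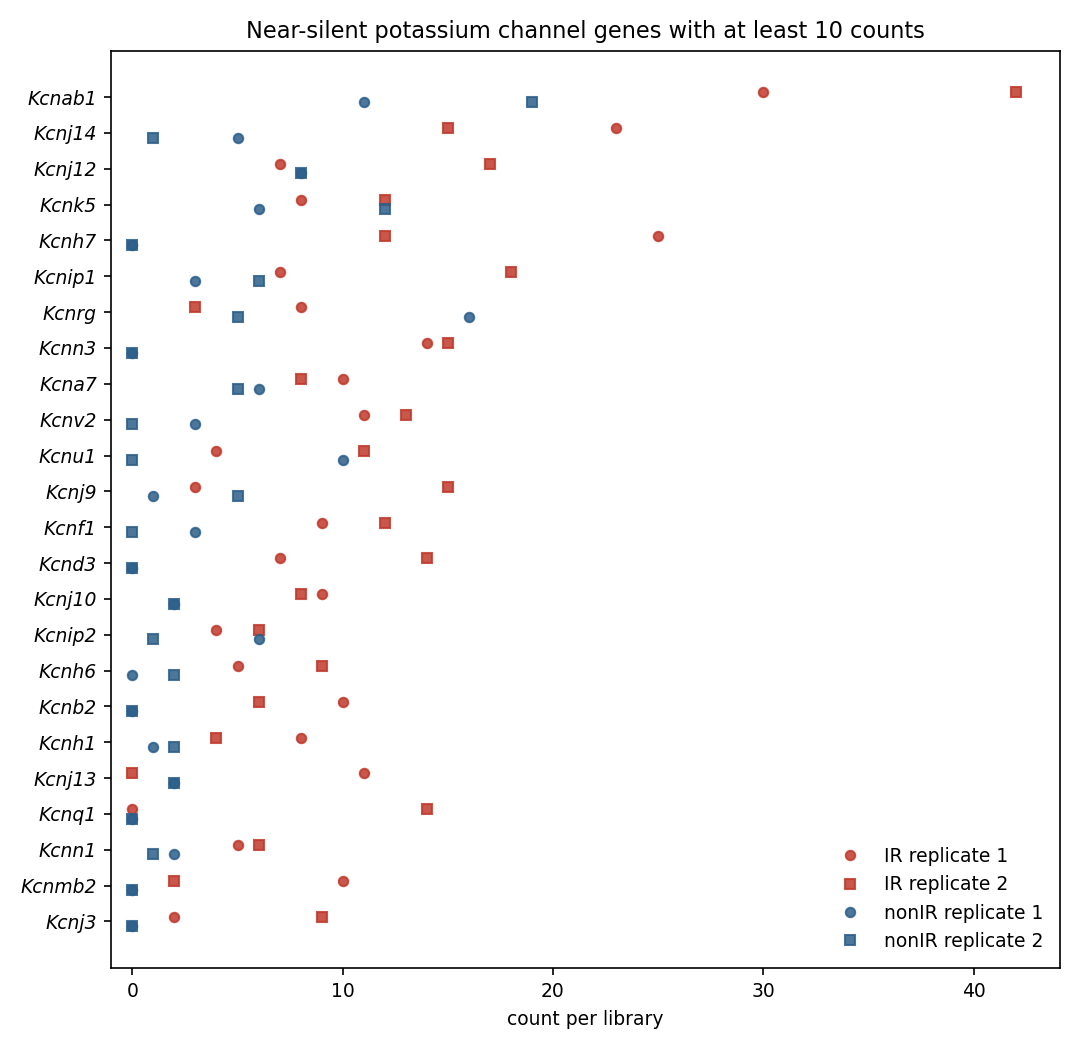
Counts per library of near-silent potassium channel genes with at least 10 counts in all, ordered by that total; red symbols are IR and blue symbols nonIR libraries, with circles for replicate 1 and squares for replicate 2. Kcnh7 and Kcnn3 have red and blue symbols well apart, whereas Kcnk5 and Kcnu1 overlap and Kcnq1 has counts in 1 library only.

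In the annotation the near-silent genes span a median of 41980.5 bases of genome, against 76363.5 for the expressed genes, and have a median exonic length of 4511 against 5029 bases. Across the 68 near-silent genes, the IR count had a Spearman rho of 0.27 with exonic length and 0.18 with genomic span, given as a description of genes that share the same libraries. Exons overlap another annotated gene in 20 of the 68 near-silent and 6 of the 10 expressed genes. Members in the table lie on 19 chromosomes.

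Other genes that move potassium or work with its channels were taken from 5 lists, 47 genes in all, of which 29 were tested. Of these 29, 14 rose and 12 fell, beside 30.4% and 30.3% of all 15298 genes tested, and their median log2 fold change was 0.15 beside 0.01. Some of the 14 had a mean under 1 CPM and passed the filter on low counts through the IR libraries. Dpp6, for example, had 0 counts in both nonIR libraries. The 14 and the median are therefore not read against that background. Over fits that left out 1 library the number that rose was between 9 and 12, the lowest without IR replicate 2. The volume-regulated anion channel, which opens when cells swell and works beside potassium channels in volume control, had 4 of its 5 LRRC8 subunit genes lower. Lrrc8a, the obligatory subunit, had 216 and 190 counts in IR and 271 and 318 in nonIR libraries (log2 fold change -0.53, SE 0.16, edgeR adjusted p = 0.00285), and Lrrc8e had a log2 fold change of -0.50 (edgeR adjusted p = 1.10e-05). The fifth gene, Lrrc8d, did not pass. The list's median was -0.41.

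Cation-chloride cotransporters and their kinases were divided, with 6 of 11 tested genes higher and 5 lower (median 0.15). Stk39, the kinase SPAK that activates sodium-potassium-chloride entry, had 701 and 636 counts in IR and 1419 and 1430 in nonIR libraries and fell 2.12-fold (log2 fold change -1.08, SE 0.08, edgeR adjusted p = 4.32e-39). Slc12a2, the cotransporter NKCC1 that carries that entry, fell by 0.50 (SE 0.04, edgeR adjusted p = 2.34e-30). In the other direction Wnk4, a kinase upstream of these transporters, had 368 and 282 counts in IR and 187 and 155 in nonIR libraries, a log2 difference of 0.93 (SE 0.17, edgeR adjusted p = 8.66e-08).

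The sodium-potassium ATPase, which builds the potassium gradient, had 5 genes tested, of which 2 rose and 2 fell (median -0.07). Those that rose, Fxyd1 and Fxyd3, had means of 0.607 and 0.332 CPM and passed the filter on low counts through the IR libraries. No tested gene of this list with a mean of at least 1 CPM rose. The counts are therefore not read against the 30.4% and 30.3% of all genes tested that rose and fell. Fxyd5, a small regulatory subunit, had 2335 and 1980 counts in IR and 3017 and 3018 in nonIR libraries and fell by 0.48 (SE 0.05, edgeR adjusted p = 1.03e-18). Atp1b3, the abundant beta subunit, did not pass, at 4328 and 3773 counts in IR and 4090 and 4472 in nonIR libraries.

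HCN channels, cation channels of the same superfamily that open on hyperpolarisation, and intracellular potassium-permeable channels had 5 genes tested, of which 3 rose and 1 fell (median 0.27). Tmem38a, an intracellular cation channel of the endoplasmic reticulum, had 248 and 257 counts in IR and 101 and 122 in nonIR libraries (log2 fold change 1.19, SE 0.20, edgeR adjusted p = 4.72e-09). Hcn2 fell by 0.20 (SE 0.09, edgeR adjusted p = 0.0454), a call that was lost without IR replicate 1 (adjusted p = 0.166), without IR replicate 2 (0.059) and without nonIR replicate 1 (0.239), and with DESeq2 size factors, DESeq2 and the replicate block. Of the partners of potassium channels, 3 of 9 listed genes were tested and 3 rose, namely Amigo1, Lrrc55 (mean 1.34 CPM) and Dpp6. Dpp6 had 0 counts in both nonIR libraries and was tested through its IR counts. The 3 are therefore not read against the 30.4% of all genes tested that rose. Amigo1, the adhesion protein that accompanies Kv2 pores, had 649 and 511 counts in IR and 475 and 507 in nonIR libraries (log2 fold change 0.25, SE 0.11, edgeR adjusted p = 0.0441), and this call was lost in 6 of 8 other fits at adjusted p between 0.0555 and 0.384, including those without IR replicate 1, nonIR replicate 1 or nonIR replicate 2. Abcc8 and Abcc9, the sulfonylurea receptors of ATP-sensitive channels, were near-silent, with 2 and 19 counts and 12 and 8 counts in IR and 0 and 0, and 0 and 1, in nonIR libraries.

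**Figure D5:**
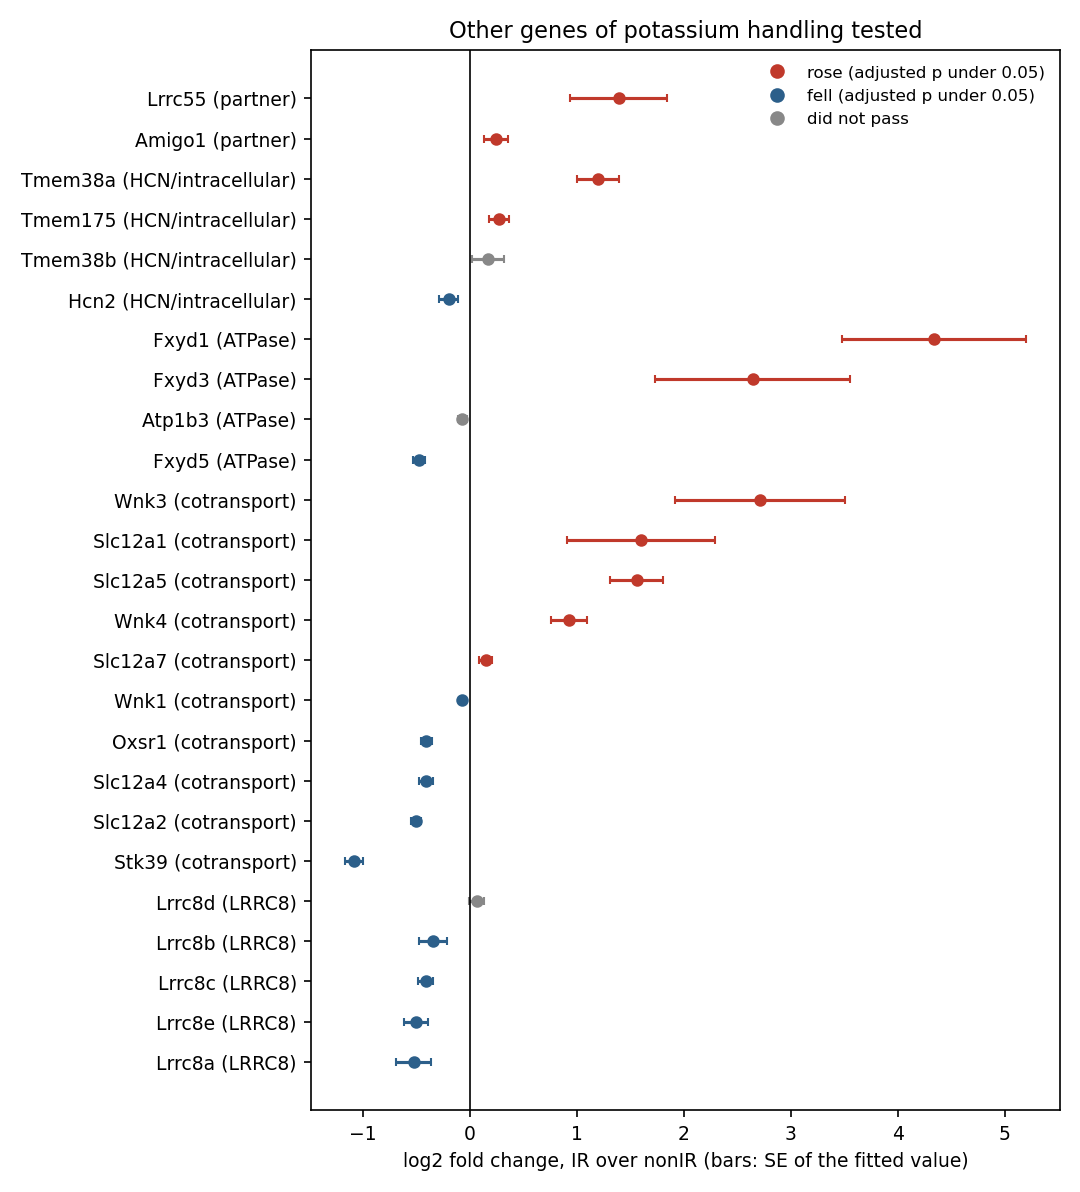
Log2 fold change (IR over nonIR) of tested genes of potassium handling outside the Kcn families that had counts in both groups, grouped by list, with bars for the SE of the fitted value; red points rose, blue points fell and grey points did not pass. The LRRC8 genes lie below 0 except Lrrc8d, and Stk39 is the lowest point at -1.08.

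The libraries held 29180110 and 26059171 counts in IR and 27995608 and 29881492 in nonIR cells, so 3 counts, the floor used here, correspond to between 0.101 and 0.113 CPM in a library. Replicates of a group differed by more than counting noise. The cell type label is only partly matched by markers. Of the 12 epithelial markers 10 have values, and 7 of these had a mean under 1 CPM. Among those 7, Epcam had 0 and 1 counts in IR and 0 and 0 in nonIR libraries, and Krt18 had 2 and 3 against 0 and 0. Krt19 had a mean of 1.59 CPM, whereas Tjp1 had 5359 and 5166 counts against 5840 and 5981 and Cdh1 2173 and 1798 against 998 and 1009. Fibroblast markers, 7 genes, summed to 1779 and 1797 CPM in IR and 1205 and 1200 CPM in nonIR libraries, led by Col1a2. Of these, 6 of the 6 tested rose, beside 30.5% of all tested genes with a mean of at least 1 CPM. Of the 4 epithelial markers tested, 2 rose and 1 fell. Neuron markers, 10 genes, summed to 397 and 416 CPM in IR and 422 and 418 CPM in nonIR libraries, nearly all of it Tubb3, while Snap25 had 6 and 0 counts in IR and 0 in both nonIR libraries and Rbfox3 9 and 7 against 0. Striated muscle markers, 6 of 8 listed, summed to 103 and 92.3 CPM in IR and 378 and 373 CPM in nonIR libraries, led by Tnnt2, with smooth muscle markers at 1.88 and 2.71 CPM against 1.71 and 1.47 CPM. Among leukocyte markers Ptprc had the highest mean CPM over the 4 libraries, with 24 and 17 counts in IR and 10 and 6 in nonIR libraries, and did not pass the test. Lyz2 had 23 and 20 counts in IR and 0 and 2 in nonIR libraries and rose (edgeR adjusted p = 5.87e-05). Among endothelial markers Pecam1 was highest, with 145 in each IR library and 63 and 47 in nonIR libraries. The part of these lists in the potassium channel values was not tested.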

How the data were processed

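Total RNA of 4 MC38 libraries was sequenced, 2 IR and 2 nonIR. Per the submitters' processing notes, HTSeq, HISAT2, HISAT and DESeq2 were used with build mm10; roles and versions are unstated. Annotation release, strand setting and handling of multiply matched reads: not given in the sources used here. Deposited were raw counts; the authors' table holds 1 row for each Ensembl gene and 1 column per library. Groups and replicate numbers follow the sample titles. The description of nonIR replicate 2 bears the other replicate's number, and the title, which its column matches, was followed.

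Counts were tested with edgeR 4.0.16 (R 4.3.3): filterByExpr, TMM factors, robust glmQLFit and glmQLFTest on irradiation alone, over 15298 genes. SE is the absolute log2 fold change over the square root of F. Symbols, coordinates (1-based) and exons are GENCODE M21. Ratios of summed counts have exact (Clopper-Pearson) intervals for counting error only. Alternatives were DESeq2 1.42.0, its size factors, no filter, a replicate block, leaving out each library, other CPM limits and members without exon overlap. The script was tested on simulated data. Members, lists and alternatives were chosen with earlier results of these data known, and motifs after the sequences were read. Named were all expressed members; near-silent members that passed, had at least 10 counts against 0, or led their class; up to 2 genes per direction in each other list with a mean of at least 5 CPM; and the highest marker of each list. Other genes given were chosen after their values were seen. Some genes that these rules name are not reported here, and figures leave them out.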

Additional observations from a re-analysis of the deposited data

How the results depend on the processing

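Of 229 values of single genes under other fits, 196 kept direction and side of the threshold and 29 lost the call, in Amigo1, Hcn2, Kcnab1, Kcnip4, Kcnj14 and Kcnv2. In 4 the sign turned, all in genes that did not pass in either fit: when 1 library was left out, the log2 fold change ran from -0.18 (without IR replicate 1) to 0.54 in Kcnj6, from -0.085 to 0.021 (without IR replicate 2) in Kcnk2, and from -0.24 (without IR replicate 2; -0.21 without nonIR replicate 1) to 0.69 in Kcnk5. Leaving out 1 library, the near-silent members that rose numbered between 2 and 7 and the other potassium handling genes that rose between 9 and 12. With at least 2 CPM as the limit, 1 expressed member rose and the near-silent ratio was 3.09. Without members that share exons with another gene, 2 expressed and 3 near-silent members rose, since fewer genes entered, and the ratio was 3.19; the cause of that lower ratio was not tested. The ratio lay between 3.73 and 4.29 in the other settings run. Class ratios without each library were added after seeing the data. No sign of pairing by replicate number was seen in the counts: the differences between replicates 1 and 2 in the IR and nonIR groups had r = -0.01 across genes. The labels do not say whether the libraries were paired. With the replicate block, 5 near-silent members rose. Depth limits the near-silent members, of which 42 had fewer than 10 counts over the 4 libraries.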
